A study of Mus musculus and Rattus norvegicus with 4 samples.

Results

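The genes described here are 43 genes of the mouse that encode secreted growth factors, or in the case of Fst a secreted antagonist, chosen by name from the FGF, HGF, IGF, PDGF, VEGF, EGF-like, TGF-beta, BMP and neurotrophin families with a few cytokines and a chemokine. They were taken from 21887 protein-coding genes, and all 43 were found by symbol. The question was which of them lie near sites bound by MEF2A. Of the 43 genes, 9 had a MEF2A peak assigned to them (20.9%), against 7.73% of all protein-coding genes. A total of 17 peaks were assigned to the 9 genes.

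Binding was mapped by ChIP-exo, in which antibody-bound DNA is trimmed by an exonuclease up to the edge of the protein, so that sequenced ends mark the footprint. The library came from C2C12 cells, a mouse skeletal myoblast line, kept for 48 h in differentiation medium with 2% horse serum, with an antibody to MEF2A. The series also held a normal rabbit IgG library from C2C12 cells under the same treatment text, and a MEF2A and an IgG library from primary rat cardiomyocytes, which were not analysed here. Each group had 1 library, so no value below has a replicate, and read depth is unknown because the deposited list gives a position and a score per peak. The list held 2797 peaks with scores from 50.08 to 3100 and a median of 77.0. Peaks are called stronger or weaker here by a higher or lower score only. Of 12 genes that mark differentiating skeletal muscle, 7 (58.3%) had an assigned peak, against 7.73% of all protein-coding genes. Des led them with a score of 925, for a peak 12.5 kb from the gene. Ckm, Myog, Myod1, Actn2 and Tnnc2 had no assigned peak. Of these, Ckm, Myog and Actn2 lay within 100 kb of a peak that went to a nearer gene. A list of binding sites does not show which genes were expressed.

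MEF2A is a DNA-binding factor of the MADS-box family that acts with the MyoD family in muscle differentiation. Secreted growth factors carry signals between muscle cells and their surroundings. HGF wakes quiescent satellite cells, FGFs favour proliferation of myoblasts, IGFs promote differentiation and growth, and myostatin, a member of the TGF-beta superfamily, limits muscle mass. VEGF and PDGF ligands act on vessels and mesenchymal cells around the fibres. A peak near a gene is a description of position and does not show that the gene is regulated.

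The strongest peak belonged to Hgf, which encodes hepatocyte growth factor, the ligand of the receptor MET. It lay at chr5:16633007-16633560 (mm10), 13.6 kb beyond the far end of the gene (chr5:16553495-16619439) and 79.1 kb from the nearer of its 2 listed start sites. Its score of 1579.7 ranked 13 of 2797 peaks, and Hgf also ranked 13 among the 1691 genes with a peak when each was ordered by its highest score. The peak was 554 bp wide, against a median width of 144 bp in the list. No other protein-coding gene lay within 100 kb of it, the next being Gm28710 at 158.2 kb. Igf1 and Igf2, the insulin-like growth factor genes, had no assigned peak. The nearest peak to Igf1 was 913.0 kb away, and the nearest to Igf2 was 150.9 kb away and was assigned to Tnnt3, a troponin gene.

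Among 9 FGF genes, Fgf7 and Fgf10 had peaks. Both encode paracrine factors made by mesenchymal cells that act on epithelia through the same FGFR2 isoform. Fgf10 (chr13:118714699-118792573) held 1 peak at chr13:118789403-118789901 with a score of 711, ranked 59 of 2797. It lay inside the gene at 96.2% of the way from the start to the far end. The next protein-coding gene, Mrps30, was 402.2 kb from it, so the peak had no near competitor for assignment.

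Fgf7 (chr2:126034658-126091185), which encodes keratinocyte growth factor, held 6 peaks, and 9 protein-coding genes in all held that many or more. The strongest, at chr2:126053583-126054069, scored 404 and lay 18.9 kb downstream of the start. A cluster at chr2:126064676-126065555 held 3 peaks with scores of 120.01, 239 and 96.6, separated by 6 and 197 bp and lying 30.0 to 30.7 kb from the start. Whether they are separate sites was not tested. The remaining peaks were weaker, with scores of 54.4 at 5.45 kb and 82.05 at 45.6 kb. All 6 peaks also lay inside Fam227b, whose span overlaps that of Fgf7, so proximity cannot assign them to one of the pair. A further peak with a score of 311 lay 56.7 kb beyond the far end of Fgf7, inside Fam227b alone.

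The other 7 FGF genes had no assigned peak. Fgf21, a metabolic hormone of liver and stressed muscle, lay 8.21 kb from a peak with a score of 157 that was inside Izumo1. Fgf2, the classical mitogen of myoblasts, was 187.1 kb from its nearest peak. Fgf6, an FGF of skeletal muscle, was 445.4 kb from one with a score of 138, and Fgf1, Fgf9, Fgf18 and Fgf5 were 301.1 to 1088 kb from theirs. The peaks assigned to FGF genes were therefore all at 2 of the 9 genes, and those at Fgf7 were shared with Fam227b.

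**Figure D1:**
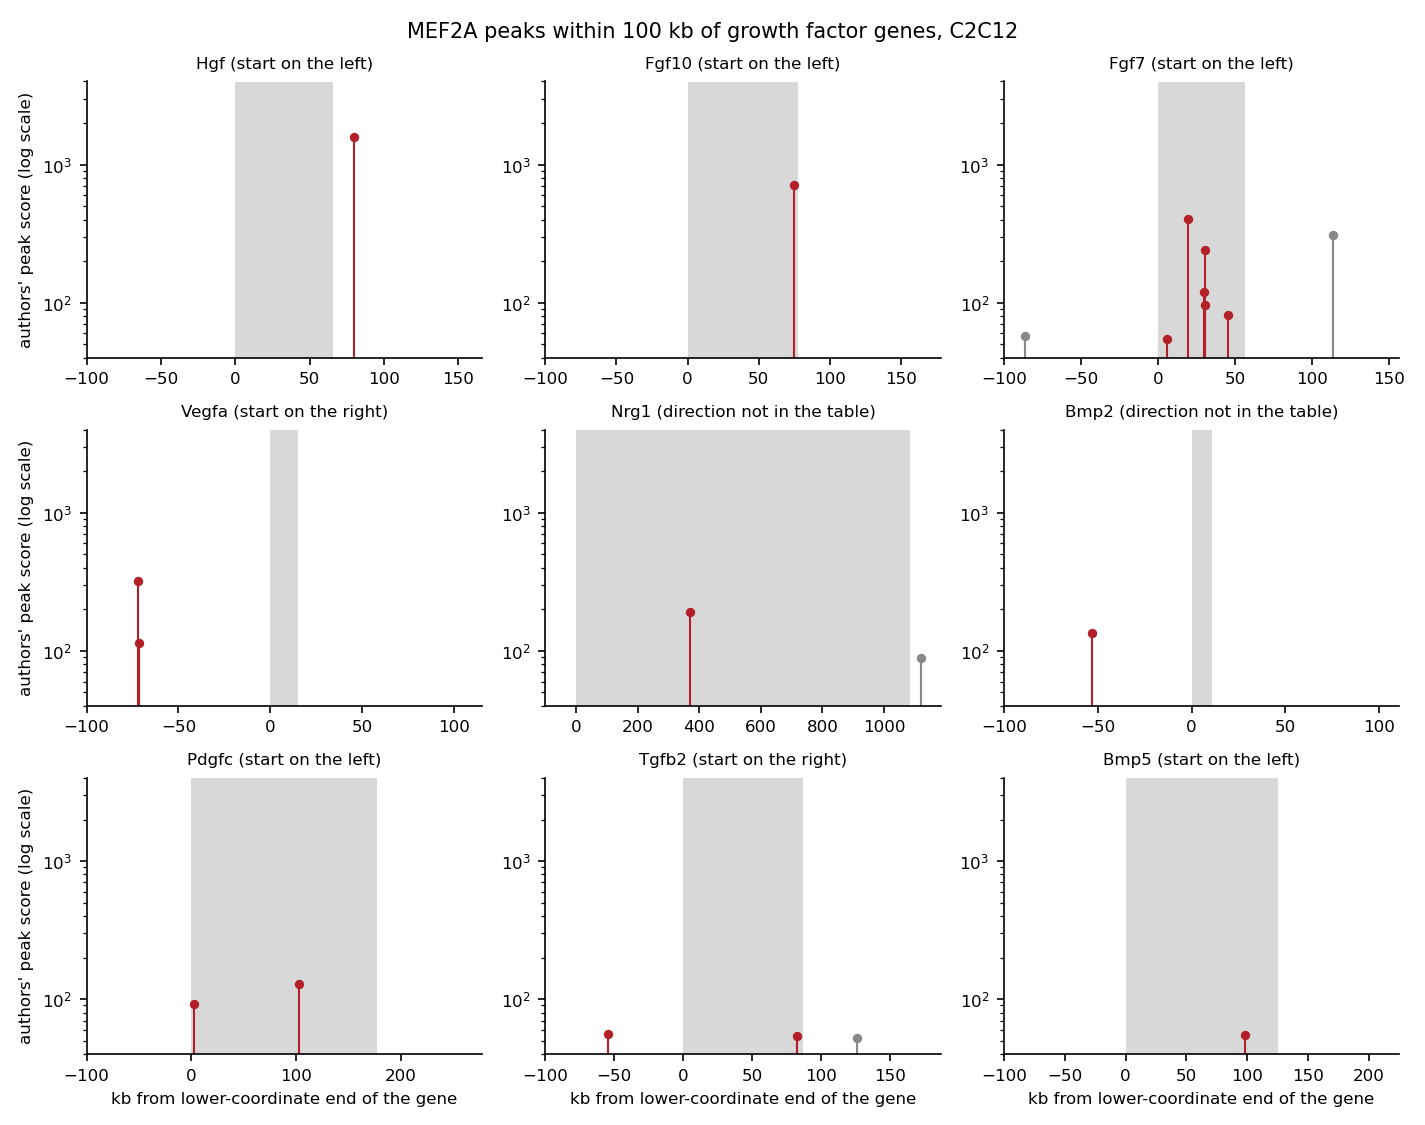
Each panel shows 1 gene with an assigned MEF2A peak, ordered by highest score, with the gene as a grey band, position in kb from its lower-coordinate end on the x axis and the authors' peak score on a log y axis. Red points are peaks assigned to the gene and grey points are peaks within 100 kb that lay nearer to or inside another gene. Hgf, Fgf10 and Vegfa have their strongest peak near or beyond the far end, while the 6 peaks of Fgf7 lie inside it.

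Vegfa and Pdgfc had peaks among 8 genes for VEGF, PDGF and angiopoietin ligands. Vegfa, the main angiogenic factor, had a pair of peaks at chr17:45944997-45945305 and chr17:45945315-45945446, separated by 9 bp, with scores of 320.5 and 115. The pair lay 71.7 and 71.5 kb beyond the far end of the gene (chr17:46016993-46032377), and the next protein-coding gene, Mrps18a, was over 100 kb away at 165.6 kb. The pair lay inside the noncoding genes Gm41585 and Gm36122, and when noncoding genes were allowed to take peaks Vegfa had none.

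Pdgfc (chr3:81036416-81214040), which encodes a PDGF ligand that is activated by cleavage of its CUB domain, held 2 peaks. The stronger, at chr3:81139252-81139498, scored 129 and lay 58.0% of the way into the gene. The other, at chr3:81039331-81039514, scored 91.7 and lay 2.92 kb downstream of the start. Both scores were above the median of the list. Among the genes without an assigned peak, Pdgfb was 58.5 kb from a peak inside Rpl3, and Vegfb was 67.6 kb from a peak next to Macrod1. Pdgfd lay just outside the limit, at 110.2 kb from a peak with a score of 130.04. Vegfc, Angpt1 and Pdgfa were 361.8, 812.1 and 1899 kb from their nearest peaks.

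Of 4 EGF-like ligand genes, Nrg1 had a peak. Nrg1 encodes neuregulin, the ERBB3 and ERBB4 ligand that motor nerves supply to muscle and Schwann cells. Its peak at chr8:32176369-32176543 scored 191 (rank 455) and lay inside the gene, which spans 1084 kb. Nrg1 had the largest territory of the 9 genes, 1184 kb. Territory here means the length of genome within which a peak would be assigned to that gene. Hbegf, Ereg and Areg, whose products bind EGFR, were 143.7, 254.8 and 319.8 kb from their nearest peaks. Ereg and Areg are neighbours and shared that peak.

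In the TGF-beta superfamily 3 of 13 genes had a peak, and the highest score of each was lower than the highest scores of Hgf, Fgf10 and Fgf7. Bmp2, which encodes a bone morphogenetic protein, had 1 peak at chr2:133498828-133499194 with a score of 135, located 53.0 kb from the lower-coordinate end of the gene (chr2:133552159-133562896). The next protein-coding gene was 552.8 kb from it, though the noncoding gene Gm14100 was nearer, at 31.8 kb. Bmp5 held 1 peak at chr9:75873497-75873612 with a score of 54.7, and 87.8% of the list scored higher.

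Tgfb2, encoding the TGF-beta ligand prominent in the embryonic heart and mesenchyme, had 2 weak peaks. One, at chr1:186705696-186705812 with a score of 54.4, lay inside the gene 177 to 293 bp downstream of the listed start site at position 186705989 on the minus strand. Of the 15 peaks at genes with a listed start, this was the closest to one. The other, at chr1:186568214-186568325 with a score of 55.8, lay 54.5 kb beyond the far end. Both ranked low in the list, at 2495 and 2325 of 2797. The listed start lies inside the gene, which runs on to position 186709697. The 250 bases before that start (RefSeq, GRCm38.p6, chr1:186705990-186706239, minus strand) are shown because the start lay 177 bp from the nearer peak. The single E-box is in capitals.
Tgfb2: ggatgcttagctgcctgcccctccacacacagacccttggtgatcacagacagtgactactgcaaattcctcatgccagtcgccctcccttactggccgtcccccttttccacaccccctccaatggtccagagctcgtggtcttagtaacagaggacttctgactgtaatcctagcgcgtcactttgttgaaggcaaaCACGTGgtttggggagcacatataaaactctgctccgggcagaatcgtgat
The peak itself lay outside this window, and its sequence was not used here.

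The other 10 genes of the superfamily had no assigned peak. Tgfb3 was 12.5 kb from a peak with a score of 285 inside Ift43, and Gdf15, a stress-induced cytokine, was 49.8 kb from a peak with a score of 338 that lay 3.54 kb from Lsm4. These peaks outscored those of all 3 genes of the superfamily that had one. Mstn, encoding myostatin, was 245.1 kb from its nearest peak, which scored 73.3. Inhba, encoding an activin subunit, was 177.4 kb from one, and Tgfb1 1855 kb. Fst, encoding the myostatin and activin inhibitor follistatin, was 721.9 kb from its nearest peak.

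The neurotrophin genes Bdnf and Ntf3 were 157.1 and 403.2 kb from their nearest peaks. The myokine gene Il6 was 148.2 kb from a peak with a score of 311 that was assigned to Dnajb6. Lif, a relative of Il6 that supports myoblast proliferation, was 149.7 kb from a weak peak (score 55.8), and Cxcl12, a chemokine that guides migrating muscle precursors, was 363.0 kb from its nearest peak. None of these 5 genes had a peak within 100 kb.

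Of the 34 genes without an assigned peak, 29 had no peak within 100 kb, and the other 5 (Fgf21, Vegfb, Pdgfb, Tgfb3 and Gdf15) lay within 100 kb of a peak that was nearer to another gene. The nearest peak was 100 to 500 kb away for 19 genes and over 500 kb away for 10 (23.3%). Over all protein-coding genes, 39.8% had no peak within 500 kb. The median distance to the nearest peak was 187.1 kb for the 43 genes and 354.0 kb for all protein-coding genes.

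**Figure D2:**
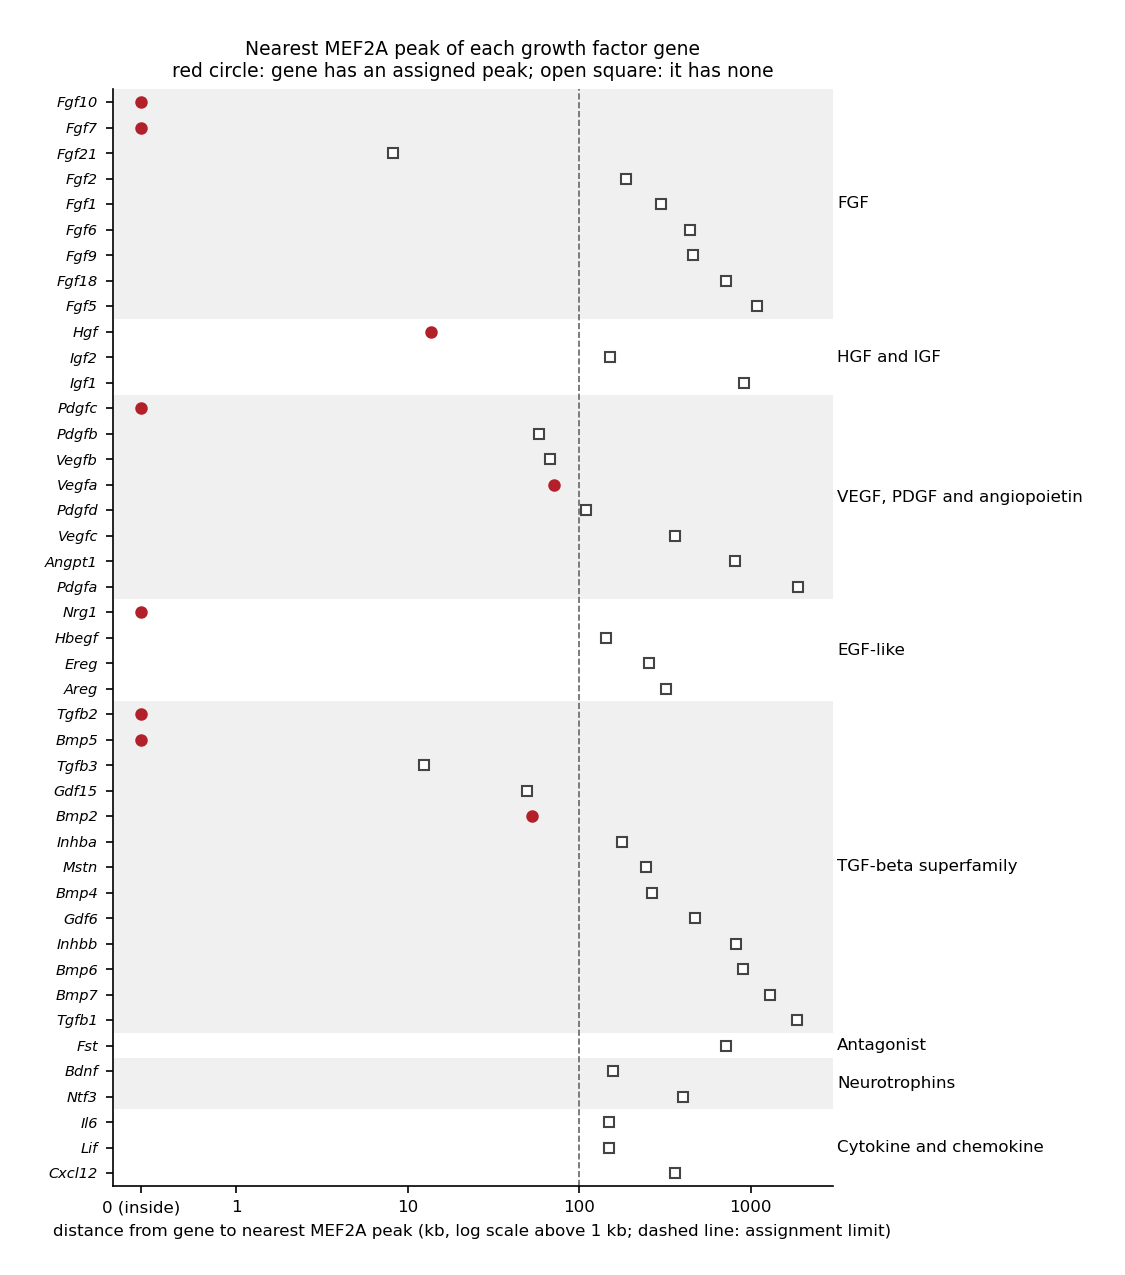
The x axis gives the distance from each of the 43 genes to its nearest MEF2A peak in kb, on a log scale above 1 kb with 0 for a peak inside the gene, and rows are grouped by ligand family. Red circles mark the 9 genes with an assigned peak and open squares the 34 without, of which 5 lie left of the dashed 100 kb limit.

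The 17 peaks had a higher median score than the list as a whole. Their scores ran from 54.4 to 1579.7 with a median of 120.01, against 77.7 over all 2306 assigned peaks. Scores of 100 or more were held by 10 of the 17 (58.8%) and by 860 of the assigned peaks (37.3%). By highest score per gene, the median was 191 for the 9 genes and 88.7 for all 1691 genes with a peak. Fgf7 supplied 6 of the 17 peaks, so these are not independent values. Inside the gene lay 12 of the 17 peaks (70.6%), against 57.1% of assigned peaks over all genes. Several peaks were assigned to 4 of the 9 genes (Fgf7, Vegfa, Pdgfc and Tgfb2), and to 25.3% of all genes with a peak.

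The 43 genes had longer territories than most genes, and the share of all protein-coding genes with a peak ran from 1.10% in the class of shortest territories to 26.6% in the longest. The median territory was 138.8 kb for the 43 genes and 45.8 kb for all protein-coding genes. With all genes divided into 10 equal classes by territory, 25 of the 43 genes fell in the upper 2 classes, which begin at 130.6 kb. In those classes 8 of the 25 genes (32%) had a peak, against 20.4% of all protein-coding genes there. In the lower 8 classes 1 of 18 did (Fgf7), against 4.55%. Averaged over the 43 genes, the share in each gene's own class was 15.0%, which corresponds to 6.46 genes, so the count of 9 was 1.39 times that of genes with like territory and 2.71 times that of all genes. The exact binomial 95% interval of 9 of 43, 10.0 to 36.0%, covers counting error only and includes the 15.0%.

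When peaks below a score of 100 were left out, 7 growth factor genes (16.3%) kept a peak, against 3.47% of all protein-coding genes and 7.14% of genes in the same territory classes. The exact 95% interval of that share, 6.81 to 30.7%, includes the class share. Tgfb2 and Bmp5 were the genes lost. With assignment limited to 10 kb, 6 genes (14.0%) had a peak, against 5.75% of all genes. Territories and their classes were redrawn for this limit, and the share of genes in the same redrawn classes was 7.96%. Hgf, Vegfa and Bmp2 were then lost, and all 6 remaining genes had a peak inside the gene.

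Other rules for score and assignment gave other counts. At a score of 200 or more, 4 growth factor genes (Hgf, Fgf7, Fgf10 and Vegfa) had a peak (9.30%), against 1.53% of all genes and 3.23% of genes in the same territory classes. The exact 95% interval of that share, 2.59 to 22.1%, includes the class share. The rules that follow are set beside all genes only, because no share for like territories was computed for them. A limit of 50 kb left 7 genes (16.3%), against 7.13% of all genes. A limit of 500 kb gave 12 (27.9%), against 8.61%, with Pdgfd, Bmp4 and Inhba added. When noncoding genes could take a peak, 7 growth factor genes (16.3%) kept one, against 5.96%, without Vegfa and Bmp2. When every gene within 100 kb of a peak took it, 14 (32.6%) had one, against 22%. That is 1.48 times the share of all genes, where the main rule gave 2.71 times. With the nearest listed start taking the peak, 7 of 32 genes (21.9%) had one, against 7.64%. Leaving out peaks that lay inside several genes removed Fgf7 and left 8 (18.6%), against 7.59%.

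Genes that act with these ligands were read in the same way. Of 44 receptor genes 6 (13.6%) had one, close to the 14.9% of their territory classes. Ackr3, a scavenger receptor for CXCL12, led them with a score of 278 at 45.5 kb, followed by Insr, the insulin receptor gene (236), Egfr (118) and Lifr, the receptor of LIF (101). When noncoding genes could take a peak, 5 receptor genes kept one, and Ackr3 had none. Met, the HGF receptor gene, contained 1 peak with a score of 94.8, so ligand and receptor both had a peak. Fgfr2, the receptor gene for FGF7 and FGF10, had none.

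Secreted antagonists and binding proteins gave 4 of 31 (12.9%), against 8.55% in their territory classes. Ltbp1, which encodes a binding protein that holds latent TGF-beta in the matrix, had 3 peaks with a highest score of 388. Bmper, a BMP modulator, had a peak with a score of 118 at 10.1 kb. Fstl1, encoding a follistatin-like protein, contained a peak of 62.1, and Spry2, an intracellular inhibitor of FGF signalling kept in this list, was 1.44 kb from one of 54.1. A further list of 58 genes outside the 43, chosen by name from these and related families, gave 3 (5.17%), against 7.49% in their classes. These were Angpt2 (163), an antagonist of ANGPT1, Cntf (87.1, at 3.43 kb) and Bmp15 (69.3, at 55.3 kb). Angpt2 had none when peaks inside several genes were left out. The lists were not tested against each other.

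**Figure D3:**
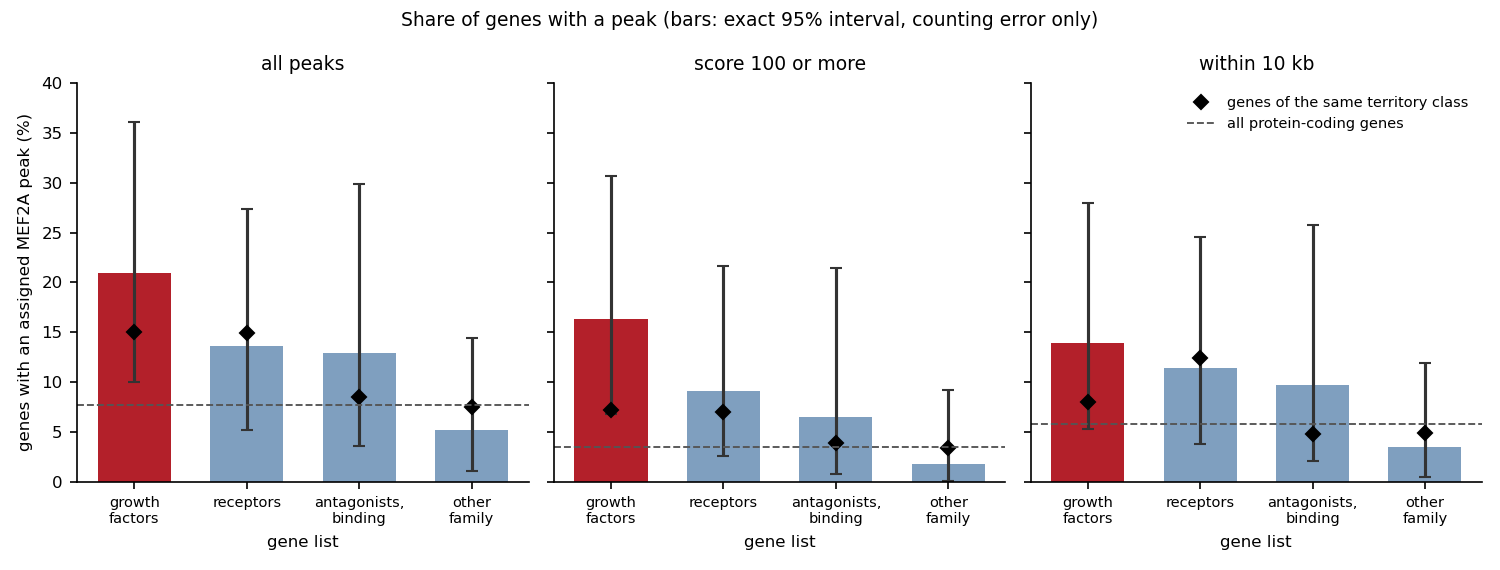
Bars give the percentage of genes with an assigned MEF2A peak in 4 gene lists, from left to right with all peaks, with peaks scoring 100 or more and with a 10 kb limit, and error bars are exact binomial 95% intervals. Diamonds give the share in genes of the same territory class, with territories redrawn for the 10 kb limit in the right panel. The dashed line gives the share of all protein-coding genes. The growth factor bar stands at 20.9, 16.3 and 14.0% against diamonds at 15.0, 7.14 and 7.96%, and each diamond lies within the error bar.

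Start sites themselves were examined through the promoter windows of RefSeq (GRCm38.p6), which run from 250 bases before to 50 after a start. The table held 46 windows for 32 of the 43 genes, and no peak overlapped any of them. Of all 32851 windows in the table, 99 (0.301%) overlapped a peak. The windows were searched on both strands for the MEF2 consensus (the A/T-rich MADS-box site) and for the E-box CANNTG bound by MyoD-family factors. They were also searched for TGANTCA, an AP-1-like pattern in which N is any base. The MEF2 consensus was in 3.19% of all windows and in 13 of the 99 that overlapped a peak (13.1%). The AP-1-like pattern was also in 13 of those 99 (13.1%), against 7.81% of all windows. The E-box was in 66 of them (66.7%), against 72.3%.

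Among the 46 windows the MEF2 consensus occurred once, at Inhba, as CTAAATATAA at -96 to -87 from a start on chromosome 13 (position 16011851). That window is shown from its first base to the base before the start (chr13:16011601-16011850, plus strand), with the match in capitals.
Inhba: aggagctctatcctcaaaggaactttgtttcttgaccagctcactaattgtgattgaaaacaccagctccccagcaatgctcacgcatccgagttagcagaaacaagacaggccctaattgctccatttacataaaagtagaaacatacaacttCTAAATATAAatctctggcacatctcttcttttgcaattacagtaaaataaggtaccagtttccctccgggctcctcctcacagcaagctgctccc
Inhba had no peak within 100 kb, so this match and the deposited peaks did not coincide. The E-box was in 28 of the 46 windows (60.9%) and in 72.3% of all windows. It was found at 20 of the 32 genes, both genes with a peak (Hgf, Fgf7, Fgf10, Vegfa and Tgfb2) and genes without one. Pdgfc and Bmp5, which had a peak, held no match. The AP-1-like pattern was in 5 windows (10.9%, against 7.81% of all), those of Bdnf, Igf1, Il6, Lif and Mstn. The match read TGAATCA at Bdnf, Igf1 and Mstn, TGAGTCA at Il6 and TGACTCA at Lif. None of these 5 genes had an assigned peak, as was the case for 34 of the 43 genes. At Mstn the match overlapped an E-box. Whether matches go with peaks was not tested. A match describes letters in the window and not a bound site.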

How the data were processed

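MEF2A ChIP-exo in C2C12 cells gave 1 library, grouped by the antibody and organism in its title. CASAVA 1.7.0, BWA 0.5.9, Picard, SAMtools, MACS 1.4.2 and the build mm10 are named in the submitters' processing notes, without settings. The authors deposited 1 list of peaks for this library, with positions and a score per peak. The scale of the score, and any use of the IgG library as control, are not given in the sources used here, so scores were compared within this list and with no other. Sites too weak to be listed are not covered.

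Starts in the list count from 0, and 1 was added for printing. A peak went to the closest protein-coding gene of RefSeq GRCm38.p6, the assembly of mm10, at up to 100 kb from the gene's ends, and a peak overlapping a gene had distance 0. A peak overlapping several genes (26 peaks) went to all of them. Start sites and strand came from the RefSeq promoter table, which held 17492 of the 21887 genes. Assignment and territories were checked on simulated peaks. No genome sequence was used, so peak sequences are not shown.

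With 1 library no test was run, and shares are set beside those of all protein-coding genes. The 43 genes and the other lists were chosen with earlier results of these data known. All 43 genes are accounted for, those with a peak with all its values, and up to 4 members of each other list by highest score. Met and Fgfr2, the position of peaks relative to gene direction, the alternative that leaves out peaks inside several genes, and merging for the count and share of genes were chosen after the values were seen. The alternatives were other score, distance and assignment rules and merged peaks. Scripts ran in Python 3.11.15 with pandas 2.3.3, numpy 2.4.6, matplotlib 3.10.9 and scipy 1.17.1.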

Additional observations from a re-analysis of the deposited data

How the results depend on the processing

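With peaks scoring 200 or more, 4 growth factor genes (9.30%) had a peak in place of 9. When every gene within 100 kb of a peak took it, 14 had one, and the count over all protein-coding genes was 4823 in place of 1691. In the other alternatives the count ran from 6 (10 kb limit) to 12 (500 kb limit). Merging peaks under 1 kb apart left it at 9 and gave 14 regions for 17 peaks. The count of 17 peaks became 10 at a score of 100 or more, 27 when every gene within 100 kb took a peak, and 11 without peaks inside several genes. Over all protein-coding genes the count fell by construction to 759 at a score of 100 or more and 334 at 200 or more. At 100 or more, antagonists gave 2 of 31 genes (6.45%) and other family members 1 of 58 (1.72%), against 3.47% of all protein-coding genes. The shares in their territory classes were 3.83 and 3.42%. With noncoding genes the highest Tgfb2 score was 54.4. The leaving out of peaks inside several genes, and merging for the count and share of genes, were chosen after seeing the data. No replicate shows which weak peaks recur. No paired analysis was possible because every group here is a single library.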

Other observations

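Of the 5 peaks that lay outside a growth factor gene, the 4 at genes with a listed direction were on the far side. The other was the peak on the lower-coordinate side of Bmp2, which has no listed direction. Whether that peak lies before the start or beyond the far end was not determined. Of 15 peaks at genes with a listed strand, 11 lay inside the gene, 4 lay beyond the far end (1 at Hgf, 2 at Vegfa and 1 at Tgfb2) and 0 lay before the start. Over all protein-coding genes with a strand, 336 of 760 such outside peaks (44.2%) lay beyond the far end. The 2 peaks of Vegfa were 9 bp apart, so the 4 peaks stand for 3 places, and the pattern was seen before it was counted. Outside the assignment, 10 further peaks lay within 100 kb of 1 of the 43 genes but nearer to or inside another gene.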
